A study of Homo sapiens with 12 samples.

Results

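The transcripts of 6 genes that make, bind, organise or cut hyaluronan were measured in Hs 578T cells, a triple-negative breast cancer cell line, with and without cystine (Cyss) and with and without exogenous NRF2. The genes were HAS2, HAS3, CD44, VCAN, TNFAIP6 and HYAL2, and they were 6 of the 55765 gene symbols counted. They were listed by name around HAS2, which was chosen by its level in these same libraries, having been seen to be higher without Cyss. The differences of HAS2 between the groups are therefore given below as a description with no test. The other 5 genes were tested, but they too were listed with earlier results of these data known. Their p-values are therefore not independent evidence.

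The cells had been transduced with lentivirus to over-express either GFP, as the control, or full-length NRF2, the transcription factor that drives antioxidant gene expression. Each population was held for 8 hours in control medium with L-cystine (with Cyss) or in medium without it (without Cyss), which gave 4 groups of 3 RNA-seq libraries: GFP with Cyss, GFP without Cyss, NRF2 with Cyss and NRF2 without Cyss. All 4 groups were the same line and all were transduced, and the NRF2 cells carried the transgene beside their own gene. The labels do not say that the 3 libraries of a group came from separate cultures, so the p-values measure only the spread between these libraries, which may be technical.

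Hyaluronan is a long unsulphated polysaccharide of the extracellular matrix, built of alternating glucuronic acid and N-acetylglucosamine. Hyaluronan synthases extrude it through the plasma membrane from UDP-sugar precursors, cell-surface receptors of which CD44 is the best known bind it, versican and TSG-6 (the product of TNFAIP6) build it into a pericellular coat, and hyaluronidases cut it. In breast tumours it is known as a matrix component of the stroma and of mesenchymal-like tumour cells.

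Each library had 27250993 to 44596870 reads assigned to genes (median 32857536). NFE2L2, the gene of NRF2, was higher in NRF2 than in GFP cells by a log2 fold change (log2FC) of 0.84 with Cyss and of 0.79 without Cyss, which passed the test in both media. The labels call the line epithelial, but CDH1 was at 0.09 to 0.41 CPM (reads scaled to a library of 1000000) and EPCAM had 0 to 1 read in each library, while VIM was at 4247.5 to 5015 CPM. Of the leukocyte and endothelial markers, CDH5 had 0 to 2 reads, CD14 was at 0.57 to 0.89 CPM and PTPRC at 0.56 to 1.59 CPM. Without Cyss, the NRF2 cells had less PTPRC than the GFP cells (log2FC -0.78), and the 2 leukocyte markers summed to 1.13 to 1.70 CPM in the former and 1.63 to 1.98 CPM in the latter. KRT18, an epithelial keratin at 22.8 to 43.6 CPM, was higher without Cyss in both cell types (log2FC 0.39 in GFP, 0.66 in NRF2). The 7 epithelial markers summed to 33.1 to 36.98 CPM in GFP cells with Cyss and 39.5 to 49.6 CPM without, and to 27.6 to 30.7 CPM in NRF2 cells with Cyss and 39.2 to 47.1 CPM without. KRT18 carried most of these sums. CDH1 was lower in the NRF2 than in the GFP cells, both deprived of Cyss (log2FC -1.27), on 3 to 12 reads per library. Of the 5 mesenchymal markers 1, ZEB1, was called, where 11.9% of all genes were called without against with Cyss in NRF2 cells. It was at 212 to 239 CPM in the 9 other libraries and at 276, 281 and 273 CPM in NRF2 cells without Cyss (log2FC 0.37 against NRF2 cells with Cyss), and its response differed between the cell types by 0.35. The 5 summed to 29239 to 30252 CPM in NRF2 cells with Cyss and to 30270 to 32760 CPM without, and to 29883 to 30390 CPM in GFP cells with Cyss and to 29037 to 31239 CPM without. Of the receptors that define breast tumour classes, ESR1 had 7 to 15 reads per library and ERBB2 was at 34.3 to 41.1 CPM. PGR had 17 to 21 reads in NRF2 cells with Cyss and 12 to 21 without. In GFP cells it had 1 to 9 reads with Cyss and 0 to 2 without. The part of these markers in the results was not tested. The third library of the GFP cells without Cyss stood apart from the rest of its group. On the first principal component, with 28.5% of the variance, it lay at 3.54 while the other two lay at -10.5 and -7.62, and the NRF2 libraries without Cyss lay at 25.2 to 27.4. Results that rest on it are given with and without it. By the chi-square of their counts per degree of freedom, the NRF2 libraries without Cyss differed more among themselves, at 5.53 to 13.0 for a pair, than the GFP libraries without Cyss, at 2.92 to 5.41. Pairs with Cyss were at 3.13 to 7.08 in GFP cells and at 2.22 to 2.69 in NRF2 cells. This measure was not adjusted for the depth of the libraries, with which it grows. The first NRF2 library without Cyss took part in the 2 highest values of its group. It also had the highest share of reads outside annotated genes, 7.84% against 5.82 to 6.69% in the others.

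The 6 genes differed widely in level. Per kilobase of the canonical transcript, the GFP cells with Cyss had 210 CPM of CD44, 163 of VCAN, 65.3 of HAS2, 27.2 of HYAL2, 7.39 of TNFAIP6 and 0.188 of HAS3, and no neighbours in this order overlapped among the 3 libraries. In the NRF2 cells without Cyss HAS2 reached 193 ± 28.5 CPM per kilobase (SD, n = 3) against 162 for VCAN, so that HAS2 and VCAN overlapped, and CD44 stayed the highest at 257. Counts per gene do not separate the splice forms of CD44 and VCAN, so a cell that uses a shorter form has more molecules than these values show.

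HAS2, the synthase of long-chain hyaluronan, was the member with the widest range. In GFP cells with Cyss the 3 libraries had 296.4, 263.3 and 270.7 CPM of HAS2. In GFP cells without Cyss they had 245.6, 298.9 and 505.5 CPM. The first of these lay below all 3 libraries with Cyss, the second only just above them, and the third, which is the library that stood apart, lay far above. In NRF2 cells HAS2 went from 240.5, 223.6 and 229.7 CPM with Cyss to 685.8, 848.1 and 922.4 CPM without Cyss. Every library without Cyss lay far above every library with it. The 12 values rested on 6680 to 31239 reads each. In bulk RNA, more HAS2 mRNA per cell and more cells that express it cannot be told apart.

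The fitted log2FC of HAS2 without against with Cyss was 1.82 in NRF2 cells (SE 0.0794), a 3.52-fold difference. It was 0.35 in GFP cells (SE 0.183). Without the third GFP library deprived of Cyss, the value in GFP cells was -0.02, and without the first it was 0.55. In NRF2 cells leaving out any 1 library moved the value only between 1.73 and 1.93. The response in NRF2 cells exceeded that in GFP cells by 1.47 (SE 0.236), and it was 1.27 to 1.84 when any 1 of the 12 libraries was left out.

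The HAS2 gene lies on the minus strand of chromosome 8 (GRCh37, 122624356 to 122653680). A long non-coding RNA, HAS2-AS1, starts in its first part on the other strand and shares 251 exon bases with it, which is 5.92% of the exon bases of HAS2. The reads were counted without regard to strand, so reads of the shared stretch cannot be given to one or the other. HAS2-AS1 was at 19.95, 20.9 and 24.3 CPM in NRF2 cells without Cyss against 8.35, 8.79 and 8.24 CPM with Cyss. It was higher there by a log2FC of 1.35 (adjusted p = 2.77e-08 by the quasi-likelihood test of edgeR, adjusted after Benjamini and Hochberg over all genes tested, as in all tests below), and the groups did not overlap. In GFP cells HAS2-AS1 was at 9.13, 11.3 and 14.4 CPM without Cyss and at 9.82, 10.2 and 9.63 CPM with Cyss, and the log2FC of 0.23 did not pass (adjusted p = 0.343). As for HAS2, the third library deprived of Cyss was the highest of the GFP libraries. HAS2-AS1 was listed for its overlap with HAS2, which was chosen by its level here. The p-values of HAS2-AS1 are therefore not independent evidence. Groups with and without Cyss did not overlap for 37.9% of all genes tested in NRF2 cells and for 23.9% in GFP cells. A lack of overlap was therefore common. The libraries had 25.5 to 30.2 HAS2 reads for each HAS2-AS1 read with Cyss in either cell type, and 34.4, 40.6 and 38.0 in NRF2 cells without Cyss. In GFP cells without Cyss this ratio was 26.9, 26.4 and 35.0, again highest in the third library.

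HAS3, a synthase that makes shorter hyaluronan chains, was near the limit of detection. It had 19 to 34 reads per library, which is 0.595 to 1.01 CPM over all 12 libraries. The log2FC without against with Cyss was -0.26 in GFP cells (SE 0.206, adjusted p = 0.580) and -0.20 in NRF2 cells (SE 0.229, adjusted p = 0.574). With so few reads, a change of HAS3 smaller than about its interval in NRF2 cells, 0.619-fold to 1.22-fold, was not detectable at this depth. HAS1, the third synthase gene, had 0 to 2 reads in each library and was not tested, so HAS2 supplied nearly all of the synthase reads in every group.

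CD44, the main cell-surface receptor of hyaluronan, rose without Cyss in NRF2 cells and was not called in GFP cells. In GFP cells CD44 was at 1178, 1110 and 1133 CPM with Cyss and at 1086, 1110 and 1209 CPM without Cyss. These groups overlapped fully, and the log2FC was 0.00 (SE 0.0428, adjusted p = 0.989). In NRF2 cells CD44 was at 1028, 1049 and 1052 CPM with Cyss and at 1372, 1416 and 1403 CPM without Cyss, which did not overlap. It rose there by a log2FC of 0.41 (SE 0.0399, adjusted p = 2.73e-06), a 33.3% increase, and leaving out any 1 library gave 0.41 to 0.42. CD44 lies on the plus strand of chromosome 11 (GRCh37, 35160429 to 35253949). Its short exon overlaps with the antisense genes CD44-AS1 (84 bases) and CD44-DT (70 bases) cannot be separated in unstranded counts.

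TNFAIP6 encodes TSG-6, a secreted hyaluronan-binding protein that moves protein chains onto hyaluronan and crosslinks it. It was at 11.4, 10.2 and 9.92 CPM in GFP cells with Cyss and at 8.83, 10.2 and 11.9 CPM without Cyss. The lowest and the highest of these 6 values were both from libraries without Cyss, and the log2FC was -0.02 (SE 0.0991, adjusted p = 0.939). In NRF2 cells it went from 10.0, 9.98 and 8.43 CPM to 12.7, 14.3 and 13.5 CPM, with no overlap, and rose by a log2FC of 0.51 (SE 0.0837, adjusted p = 4.99e-04). The value was 0.43 to 0.55 when any 1 library was left out, and the counts behind it were 259 to 464 reads per library.

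VCAN, the gene of the large matrix proteoglycan versican that binds hyaluronan by its globular head, was high in every group, and its group means spanned the least of the 6 members, 0.13 on the log2 scale. In GFP cells it was at 2077, 1962 and 1996 CPM with Cyss and at 2045, 1884 and 1995 CPM without Cyss (log2FC -0.02, SE 0.0373, adjusted p = 0.838). In NRF2 cells it was at 1849, 1904 and 1768 CPM with Cyss and at 2063, 2020 and 1911 CPM without Cyss. The latter groups did not overlap, but 1911 and 1904 nearly touched, and the log2FC of 0.11 (SE 0.0472) did not pass (adjusted p = 0.107). The 95% confidence interval of this difference was 1.01-fold to 1.16-fold. VCAN is on the plus strand of chromosome 5 (GRCh37, 82767437 to 82878122), and 453 of its exon bases overlap the antisense gene VCAN-AS1.

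HYAL2, a hyaluronidase anchored at the cell surface that cuts long hyaluronan into intermediate fragments, was lower without Cyss in both cell types, with no overlap between the groups and an adjusted p under 0.1. In GFP cells it went from 49.4, 54.0 and 50.1 CPM to 43.3, 47.0 and 44.9 CPM (log2FC -0.18, SE 0.0507, adjusted p = 0.0846). That p stayed under 0.1 only without the first GFP library with Cyss (0.0602) and was 0.133 to 0.203 with any other 1 library left out. In NRF2 cells it went from 55.0, 51.4 and 54.1 CPM to 42.5, 43.4 and 45.6 CPM (log2FC -0.29, SE 0.0518, adjusted p = 8.50e-04). Both differences were smaller than the log2FC of 0.32 that a differentially expressed gene (DEG) had to pass here, so HYAL2 was not called. In NRF2 cells it would be called without the second library with Cyss (log2FC -0.32) or with scaling by library size alone (log2FC -0.35). HYAL2 is on the minus strand of chromosome 3 (GRCh37, 50355221 to 50360213), and 509 of its exon bases, or 11.51%, also belong to exons of its neighbour TUSC2 on the same strand.

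A DEG had to have an adjusted p below 0.1 and an absolute log2FC above 0.32. By that rule 0 of the 5 tested members were called in GFP cells, where 2.10% of all genes tested were called, and 2 of 5 were called, both higher, in NRF2 cells, where 6.81% of all genes were called higher and 5.14% lower. Without the fold threshold HYAL2 alone passed in GFP cells, against 5.92% of all genes, and CD44, TNFAIP6 and HYAL2 passed in NRF2 cells, against 29.0%. The groups did not overlap for 2 of the 5 tested members in GFP cells, against 23.9% of all genes. In NRF2 cells they did not overlap for 4 of 5, against 37.9%. The members were listed around this contrast, so nothing is read from these shares. The median log2FC of the 5 tested members was -0.02 for GFP cells, where that of all genes tested was 0.00. For NRF2 cells it was 0.11, against -0.01 for all genes.

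**Figure D1:**
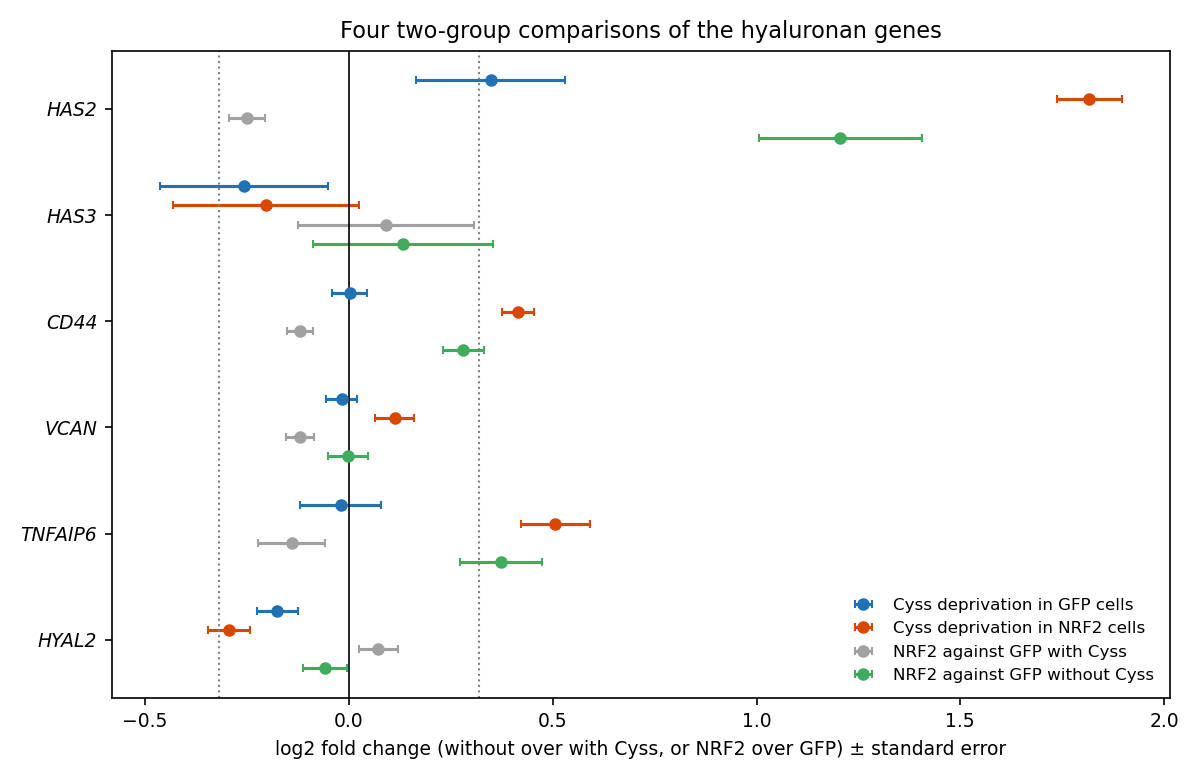
log2FC of the 6 genes in the 4 pairwise comparisons, with standard errors from the edgeR fits. Dotted lines mark the threshold of 0.32 in either direction, and HAS2 without against with Cyss in NRF2 cells, at 1.82, lies farthest from 0.

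The test of whether the response to Cyss deprivation differed between the cell types was made on all 12 libraries. CD44 responded more in NRF2 than in GFP cells, by a log2FC of 0.41 (SE 0.0574, adjusted p = 6.71e-04), and so did TNFAIP6, by 0.53 (SE 0.137, adjusted p = 0.0224). These were 2 of the 5 members tested, against 8.97% of all genes called in that direction and 6.13% in the other. The members were listed with earlier results known, so nothing is read from this share. Both CD44 and TNFAIP6 passed with any 1 of the 12 libraries left out. The test did not pass for VCAN (0.13, adjusted p = 0.188), HYAL2 (-0.12, adjusted p = 0.328) or HAS3 (0.05, adjusted p = 0.940). For HYAL2 the 95% confidence interval of the ratio of both responses was 0.830-fold to 1.02-fold, so its smaller fall in GFP cells was not told apart from that in NRF2 cells. VCAN passed (0.16, adjusted p = 0.0680) without the third NRF2 library deprived of Cyss.

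**Figure D2:**
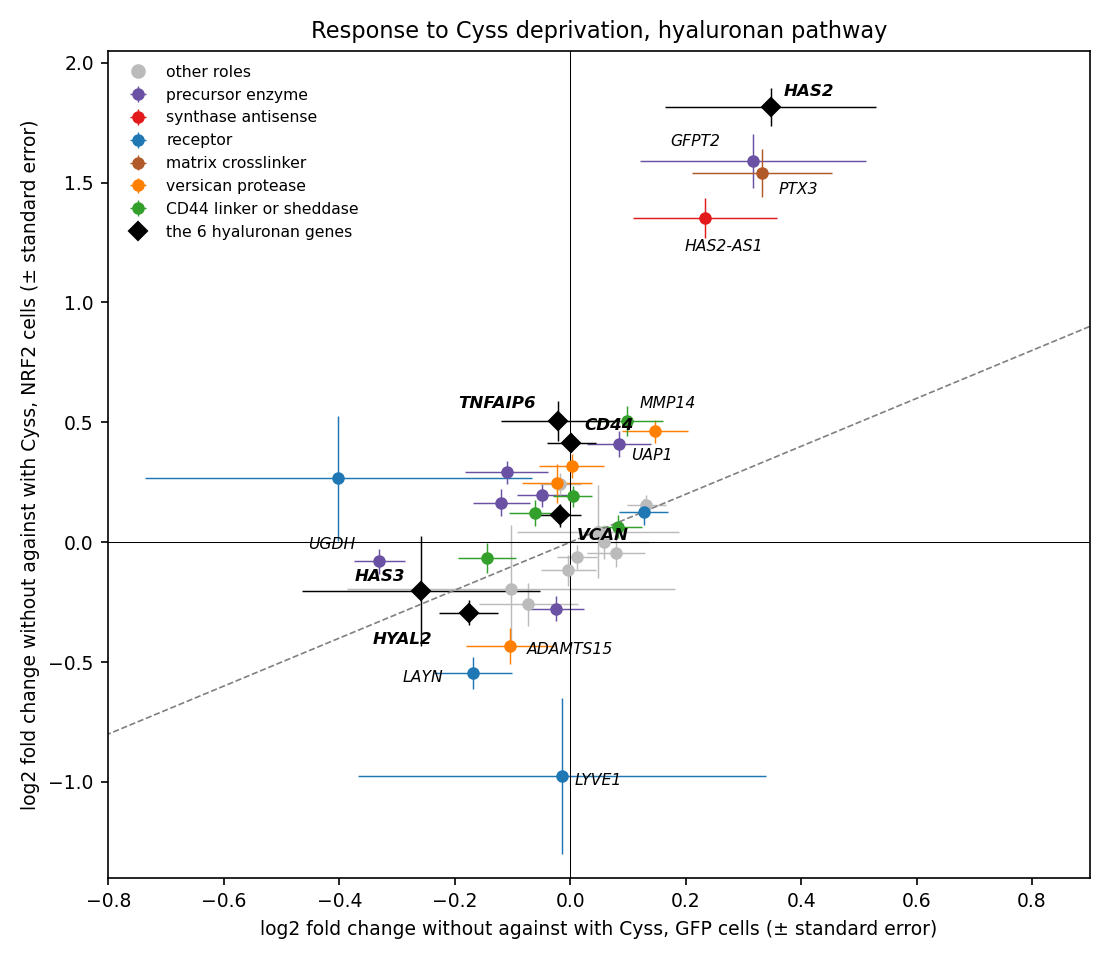
log2FC without against with Cyss in NRF2 cells (vertical axis) against the same in GFP cells (horizontal axis) for the 6 genes and the other tested genes of the hyaluronan list, with the dashed line marking equal responses and bars giving standard errors. HAS2 lies at 0.35 and 1.82, GFPT2 at 0.32 and 1.59, PTX3 at 0.33 and 1.54, and HYAL2 at -0.18 and -0.29.

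The comparison of NRF2 with GFP cells asks what exogenous NRF2 changed in either medium. With Cyss, the NRF2 cells had less HAS2 than the GFP cells, by a log2FC of -0.25 (SE 0.0437), and the highest NRF2 library (240.5 CPM) lay below the lowest GFP library (263.3 CPM). CD44 (log2FC -0.12, adjusted p = 0.0543) and VCAN (log2FC -0.12, adjusted p = 0.0723) were also lower, without overlap between the groups, as for 24.8% of all genes. These were 2 of the 5 tested members with an adjusted p under 0.1, as had 6.43% of all genes, but 0 of 5 reached the fold threshold as well, against 1.36% of all genes called higher and 0.201% lower, 1.56% in all. With single libraries left out the adjusted p rose up to 0.174 for CD44 (without the first NRF2 library with Cyss) and up to 0.298 for VCAN (without the third), and for CD44 it stayed under 0.1 only without the first or the second GFP library with Cyss. For VCAN it stayed under 0.1 only without the second library with Cyss of either cell type. TNFAIP6 (log2FC -0.14, adjusted p = 0.370), HYAL2 (log2FC 0.07, adjusted p = 0.437) and HAS3 (log2FC 0.09, adjusted p = 0.864) did not pass the test.

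Without Cyss, the NRF2 cells had more HAS2 than the GFP cells, by a log2FC of 1.21 (SE 0.200), a 2.31-fold difference. The NRF2 libraries are the ones in which HAS2 had been seen to be high. The highest GFP library (505.5 CPM) stayed below the lowest NRF2 library (685.8 CPM), and without that GFP library the log2FC was 1.57. Of all genes tested in this comparison 38.5% had no overlap between the groups. TNFAIP6 was higher by 0.37 (SE 0.101, adjusted p = 0.0221), but fell under the fold threshold, at 0.27, without the first GFP library deprived of Cyss. CD44 was higher by 0.28 (SE 0.0495, adjusted p = 0.00272), which was below the threshold, and it reached 0.33 and was called without the third GFP library deprived of Cyss. VCAN (log2FC 0.00, adjusted p = 0.986), HYAL2 (log2FC -0.06, adjusted p = 0.479) and HAS3 (log2FC 0.13, adjusted p = 0.739) did not pass. Of the 5 tested members 1, TNFAIP6, was called, where 5.98% of all genes were called higher and 4.09% lower. By the adjusted p alone CD44 passed as well, which made 2 of 5 against 28.8% of all genes. These comparisons share their libraries with those of Cyss deprivation and are not independent of them.

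Motifs bound by stress-activated transcription factors were looked for in the 250 bases before the start of each member, on both strands, in the promoter sequences of RefSeq (GRCh38.p14), which held 5 of the 6 genes and not HAS2. The motifs were the AP-1 site TGANTCA, the core of the antioxidant response element TGACNNNGC, the C/EBP-ATF composite TGATGNAA and the CRE TGACGTCA, where N is any base. Every match found at these 5 genes is shown. Whether a match bears on the response of its gene was not tested. The windows, with the motif in capitals, are given on the plus strand at chr2:152213968-152213992 for TNFAIP6 and at chr11:35160598-35160624 for CD44, both placed in GRCh37 by exact match.
TNFAIP6: caatgcaaaTGAGTCAgaggatttg
CD44: ctgcgggctGCTTAGTCAcagcccccc
The TNFAIP6 match is an AP-1 site on the strand of the gene, 129 bases before the start. The CD44 match is the core of the antioxidant response element read on the opposite strand, 111 bases before the RefSeq start and within an exon of CD44 in GENCODE. HAS3, VCAN and HYAL2 had no match to any of the 4 motifs in this window. Of 35116 promoters of the same length, 6.57% held the AP-1 site, 10.9% the antioxidant response element core, 3.14% the composite and 1.65% the CRE. The share that held any of the 4 motifs was not counted. A match says only that these letters are there.

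Beside the 6 members, 47 other genes of hyaluronan synthesis, binding and breakdown were listed, of which 31 had enough counts to be tested. In GFP cells 0 of the 31 rose and 1 fell without Cyss, where 1.57% of all genes were called higher and 0.533% lower. In NRF2 cells 6 rose and 3 fell, where 11.9% of all genes were called in either direction. With Cyss 0 of 31 were called between NRF2 and GFP cells, against 1.56% of all genes, and without Cyss 4 were higher and 2 lower in NRF2 cells, against 10.1% of all genes. The responses of 16 of the 31 differed between the cell types, 13 higher and 3 lower in NRF2 cells, against 15.1% of all genes. The median difference in response was 0.18 for the 31 genes and -0.01 for all genes tested. These genes were listed with earlier results of these data known, and HAS2-AS1 is among them. Nothing is therefore read from these shares and medians.

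Of the enzymes that make the precursors of hyaluronan, all 7 were tested and the responses of 7 differed between the cell types, 6 higher and 1 lower in NRF2 cells, against 8.97% and 6.13% of all genes. The list was chosen with earlier results of these libraries known. The first step of the hexosamine pathway to UDP-N-acetylglucosamine is catalysed by GFPT1 and GFPT2. GFPT2 was at 19.2, 17.5 and 17.5 CPM in NRF2 cells with Cyss and at 43.2, 54.9 and 65.5 CPM without Cyss, with no overlap, and rose by a log2FC of 1.59 (adjusted p = 1.16e-07). In GFP cells it was at 18.5, 17.0 and 16.8 CPM with Cyss and at 14.4, 19.1 and 31.5 CPM without Cyss (log2FC 0.32, adjusted p = 0.418). The third library deprived of Cyss was the highest by far, as for HAS2. UAP1, which forms UDP-N-acetylglucosamine in the last step, rose in NRF2 cells by a log2FC of 0.41 (adjusted p = 6.52e-05). In those cells GFPT1 (log2FC 0.16), GNPNAT1 (log2FC 0.29) and PGM3 (log2FC 0.20), which act in the first and middle steps, had an adjusted p under 0.1 but were below the fold threshold.

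On the glucuronic acid branch, UGDH, which oxidises UDP-glucose to UDP-glucuronic acid, fell without Cyss in GFP cells, from 367.9, 329.4 and 342.5 CPM to 265.3, 274.4 and 281.9 CPM (log2FC -0.33, adjusted p = 6.57e-04). The fall passed in 4 of the 6 fits that left out 1 library. In NRF2 cells UGDH was not called (log2FC -0.08, adjusted p = 0.294), and the responses differed by 0.25 (adjusted p = 0.0298). UGP2, which makes UDP-glucose, was lower without Cyss in the NRF2 cells than in the GFP cells (log2FC -0.35, adjusted p = 0.00151). It was at 106.3, 114.2 and 105.7 CPM there, against 144.1, 140.3 and 126.4 CPM in GFP cells without Cyss. The call was lost (log2FC -0.315) without the first GFP library deprived of Cyss and held in the other 5 fits. Within NRF2 cells UGP2 fell without Cyss, as the other precursor enzymes with an adjusted p under 0.1 there rose. Its range was 122.4 to 135.8 CPM with Cyss and 105.7 to 114.2 CPM without. That fall had an adjusted p under 0.1 but was below the fold threshold, at a log2FC of -0.3197 to -0.253 with any 1 library left out.

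Among the genes that organise hyaluronan or process its partners, PTX3 had the largest response. PTX3 encodes a pentraxin that crosslinks hyaluronan together with TSG-6. In NRF2 cells it went from 17.7, 15.9 and 17.2 CPM to 39.6, 53.5 and 54.9 CPM and rose by a log2FC of 1.54 (adjusted p = 5.24e-08). In GFP cells it was at 16.3, 20.4 and 25.8 CPM without Cyss against 16.2 to 17.2 CPM with Cyss, which was not called (log2FC 0.33, adjusted p = 0.165). MMP14, a membrane protease that sheds CD44, rose in NRF2 cells (log2FC 0.51, adjusted p = 3.20e-05), and so did ADAMTS1, a protease that cuts versican (log2FC 0.46, adjusted p = 4.13e-06). ADAMTS15, another versican protease, fell (log2FC -0.43, adjusted p = 7.66e-04). ADAMTS4 (log2FC 0.32, adjusted p = 4.13e-04) and ADAMTS5 passed the adjusted p but not the fold threshold. The log2FC of ADAMTS5 was 0.13 to 0.33 with any 1 library left out. It was called higher only without the third NRF2 library deprived of Cyss.

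Of the other hyaluronan receptors, LAYN (layilin) fell in NRF2 cells, from 19.3, 21.7 and 21.4 CPM to 13.98, 14.8 and 14.1 CPM (log2FC -0.55, adjusted p = 2.88e-05). LYVE1 was called lower there (log2FC -0.98, adjusted p = 0.0440), but on 11 to 15 reads per library with Cyss and 6 to 8 without. The call was kept in 3 of the 6 fits that left out 1 library. HMMR was not called in any comparison. Of the hyaluronidases and depolymerising proteins other than HYAL2, none of the 4 tested was called without against with Cyss in either cell type. They were HYAL1, HYAL3, KIAA1199 (the file symbol of the hyaluronan-binding protein CEMIP) and TMEM2 (CEMIP2). In NRF2 cells KIAA1199 (log2FC 0.16) and TMEM2 (log2FC 0.24) had an adjusted p under 0.1 but were below the fold threshold. TMEM2 had a larger response there than in GFP cells, by 0.26 (adjusted p = 0.00561). KIAA1199 was higher without Cyss in GFP cells too, at 383.9 to 402.3 CPM against 358.5 to 361.7 CPM with Cyss. Its responses differed by 0.004 to 0.042 with any 1 of the 12 libraries left out. HYAL3 was lower without Cyss in NRF2 cells, with a log2FC of -0.35 to -0.19 when any 1 library was left out. It was called only without the third NRF2 library deprived of Cyss. The 4 listed genes of the heavy chains that TSG-6 moves onto hyaluronan (ITIH1, ITIH2, ITIH3 and ITIH5), with 0 to 7 reads per library, and AMBP, which encodes the bikunin core of the donor complex, with 1 to 11 reads, were too low to be tested.

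**Figure D3:**
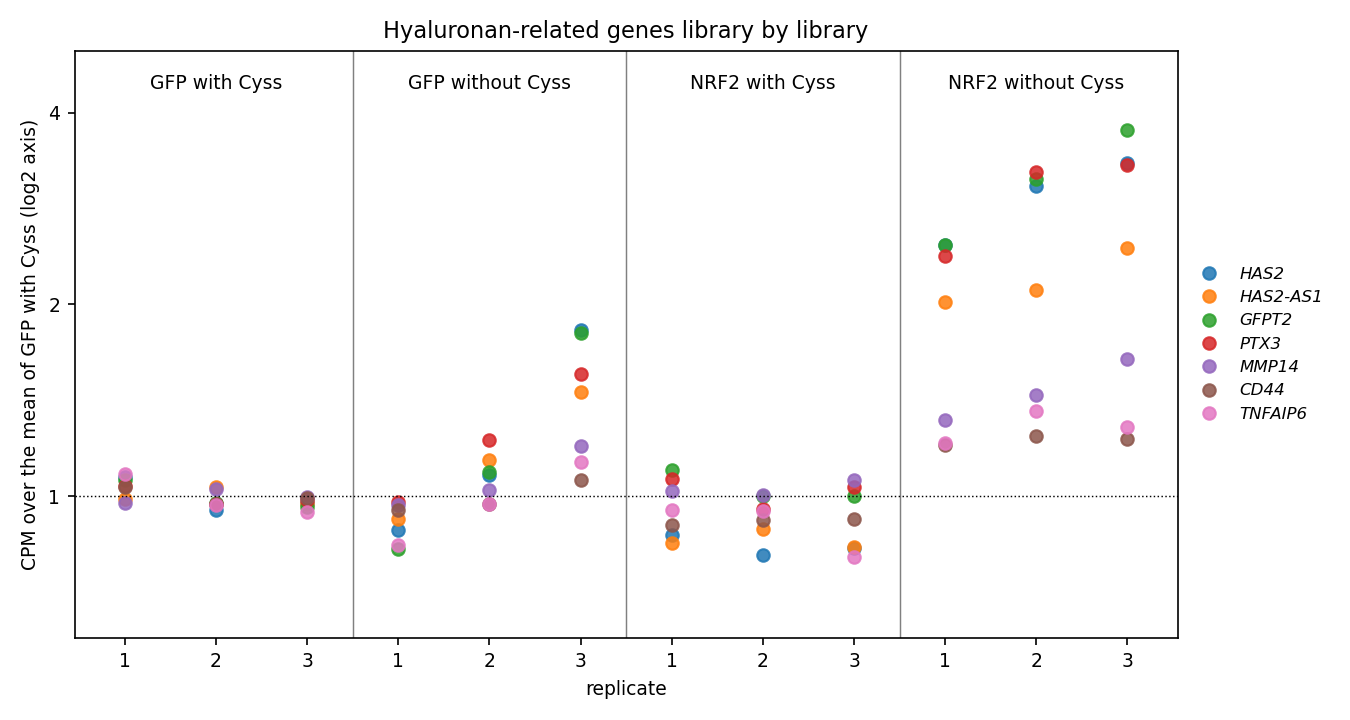
CPM of HAS2 and of the other genes shown in each of the 12 libraries, relative to the mean of the GFP libraries with Cyss (log2 axis). In the third GFP library without Cyss the ratio is 1.83 for HAS2, 1.81 for GFPT2, 1.55 for PTX3, 1.46 for HAS2-AS1, 1.20 for MMP14, 1.13 for TNFAIP6 and 1.06 for CD44.

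The GFP library that stood apart was above the GFP mean with Cyss for each of the genes plotted by library, in the order HAS2, GFPT2, PTX3, HAS2-AS1, MMP14, TNFAIP6 and CD44. The members not plotted there lay below that mean in the same library, at a ratio of 0.827 for HAS3, 0.878 for HYAL2 and 0.992 for VCAN. Leaving out the first GFP library deprived of Cyss keeps the second and the third. GFPT2 (log2FC 0.55), PTX3 (log2FC 0.49) and HAS2-AS1 (log2FC 0.39) were then called higher in GFP cells as well. Without the third library the log2FC was -0.06 for GFPT2, 0.14 for PTX3 and 0.05 for HAS2-AS1, and none was called.

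The genes whose group means were nearest to those of HAS2 over the 4 groups, among 13793 genes, were SPRY2, TGM2, SPRY4, LIF and IL6. The measure was the root mean square difference of the centred mean log2 CPM, and it was 0.0649, 0.0878, 0.0989, 0.0998 and 0.109 for these genes, where the means of HAS2 itself spanned 1.81. SPRY2 and SPRY4 encode feedback inhibitors of receptor tyrosine kinase signalling, TGM2 a protein-crosslinking transglutaminase, and LIF and IL6 secreted cytokines. SPRY2 was at 42.9, 52.6 and 60.8 CPM in NRF2 cells without Cyss and at 15.3, 15.7 and 16.7 CPM with Cyss, and at 16.4, 20.8 and 28.8 CPM in GFP cells without Cyss. All 5 genes were highest in the NRF2 libraries without Cyss, which follows from their choice by group means. Among the GFP libraries they were highest in the third one deprived of Cyss. For TNFAIP6, whose means spanned only 0.51, the nearest were RP11-473I1.5, WDR36 and PDCD1LG2, at 0.0114 to 0.0197. The means of CD44, HAS3, HYAL2 and VCAN spanned 0.42 or less, and no nearest genes were sought for them.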

How the data were processed

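RNA-seq reads of 12 libraries had been mapped to hg19 with TopHat2 2.1.0 and counted per gene with HTSeq 0.11.2 without regard to strand by the authors, and the deposited values are raw read counts per gene symbol. The annotation is not given in the sources used here. Reads with no feature, ambiguous, or not unique were 15.9 to 17.1% of each table and were left out, as were 523 rRNA genes, which left 55242 genes. For each comparison of 6 libraries, genes whose mean normalized count reached 10 in either group were tested with the quasi-likelihood test of edgeR 4.0.16 (R 4.3.3) after TMM scaling, with Benjamini-Hochberg adjustment over all genes tested. The interaction was fitted on all 12 libraries and called at an adjusted p below 0.1. Values by library are CPM computed from the deposited counts and scaled by TMM over the 12 libraries. The scripts were tested on simulated counts. The members and the lists of genes were chosen with earlier results of these data known. Named were the members, the listed genes called in any comparison, HAS2-AS1, NFE2L2 and the genes nearest to a member in profile. Alternatives were scaling by DESeq2 1.42.0 size factors or by library size, DESeq2's Wald test, other filters and thresholds, rRNA genes kept, 1 fit for all libraries, the replicate number as a block, and each library left out.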

Additional observations from a re-analysis of the deposited data

Results flagged for a closer look

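The following genes are given here because their response to Cyss deprivation differed between NRF2 and GFP cells in the interaction test of edgeR on 12 libraries (adjusted p below 0.1), each value being the log2FC in NRF2 cells minus that in GFP cells. Of the members, CD44 (0.41) and TNFAIP6 (0.53) responded more in NRF2 cells. Of the precursor enzymes, GFPT2 (1.27), GNPNAT1 (0.40), UAP1 (0.33), GFPT1 (0.28), UGDH (0.25) and PGM3 (0.24) had a higher response in NRF2 cells and UGP2 a lower one (-0.25), which did not pass (-0.22) without the first GFP library deprived of Cyss. Of the genes that organise or process the matrix, PTX3 (1.21), MMP14 (0.41), ADAMTS1 (0.32) and ADAMTS4 (0.32) had a higher response and ADAMTS15 a lower one (-0.33), and that of ADAMTS15 passed in 3 of the 12 fits that left out 1 library. The antisense gene HAS2-AS1 differed by 1.12, TMEM2 by 0.26 and the receptor LAYN by -0.38. MSN, which encodes moesin, a linker of CD44 to actin, differed by 0.19 and passed in 10 of those 12 fits.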

How the results depend on the processing

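HAS2 is left out of the counts that follow. With no fold threshold 1 member, HYAL2, counted as lower after Cyss deprivation in either cell type (0 in both otherwise). The same rule passed 5.92% of all genes in GFP cells and 29.0% in NRF2 cells. CD44 and VCAN counted as lower in NRF2 than in GFP cells with Cyss, where 6.43% of all genes passed. With scaling by library size alone 1 member, HYAL2, was called lower in NRF2 cells. With single libraries left out, 0 to 1 members were called lower without Cyss in NRF2 cells. The members with a higher response in NRF2 cells were then 2 to 3. In medium without Cyss TNFAIP6 was called higher in NRF2 than in GFP cells unless the first GFP library was left out. CD44 was called there only without the third GFP library. Values near 0 changed sign. In GFP cells CD44 was at -0.0049 by library size and -0.010 with no filter, and with single libraries left out CD44 lay between -0.046 and 0.034, VCAN between -0.043 and 0.015 and TNFAIP6 between -0.137 and 0.086. Between NRF2 and GFP cells without Cyss VCAN was at 0.0089 with DESeq2 size factors, 0.0090 with DESeq2's test, 0.011 in 1 fit of all libraries, and -0.033 to 0.033 with libraries left out. HAS3 lay between -0.076 and 0.195 for NRF2 against GFP cells with Cyss and between -0.059 and 0.217 for the difference in response. The cause was not tested.

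The replicate numbers are shared between groups, but the labels give them no meaning, and deviations of same-numbered libraries correlated at -0.048 to 0.143. With the replicate block HAS2 was at 0.28 in GFP and 1.81 in NRF2 cells, and no call on a member changed.

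Precision is limited by 3 libraries a group: the log2FC of HAS2 in GFP cells was -0.02 to 0.55 with single libraries left out. HAS3 and LYVE1 rested on few reads.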
